A study of Homo sapiens with 18 samples.

Results

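Melanosome biogenesis and transport were followed through 10 genes: MLPH, RAB27A, MYO5A, RAB38, RAB32, HPS1, HPS4, HPS5, GPNMB and TSPAN10. They were chosen by name, with earlier results of these data known, so their shares beside those of all probe sets are descriptions. Every probe set annotated to one of them was taken, which gave 26 of the 54613 probe sets on the array. Of these, 23 passed the filter on dim probe sets and were tested, with at least 1 for each gene. The others, 217417_at of MYO5A, 239382_at of HPS1 and 1560464_at of TSPAN10, lay at the floor of 32 on 18, 18 and 17 of the 18 arrays.

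Gene expression was measured in SKMEL5, WM2664 and A375, human lines derived from melanomas, all of them known carriers of mutant BRAF. Each line was given the solvent DMSO or A-485, a small molecule that blocks the acetyltransferase activity of the coactivators p300 and CBP, and was collected at 6 h or 24 h. The titles give the dose of A-485 as 3 mM, a unit that was not checked here. There were 2 DMSO arrays and 1 A-485 array for each line and time, and the series describes 2 sensitive lines and 1 resistant line without saying which they are.

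The values are scaled intensities, that is deposited probe set intensities after quantile normalization with a floor of 32, and differences are log2 of A-485 over DMSO ± SE. The spread in every test came from the 6 pairs of DMSO arrays, so a lone A-485 array was assumed to vary as those pairs did. The labels do not say that arrays came from separate cultures, and p-values therefore measure only the spread between these arrays. A probe set was called at a limma adjusted p under 0.05. No detection call was used, and a probe set at the floor has only an upper bound. In bulk RNA, fewer cells that express a gene and less RNA of it per cell cannot be told apart.

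Melanosomes are lysosome-related organelles in which melanocytes make and store pigment. Their cargo is sorted from endosomes by the BLOC complexes and the small GTPases RAB32 and RAB38. Mature melanosomes carry RAB27A, which binds melanophilin (MLPH), which in turn holds the actin motor myosin Va (MYO5A), and the trio tethers the organelle at the cell periphery. Loss of HPS genes causes Hermansky-Pudlak syndrome, and loss of RAB27A, MLPH or MYO5A causes Griscelli syndrome, both with diluted pigmentation.

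The lines differed as melanocytic cells. Of 7 melanocytic markers, DCT had no probe set with a single symbol, and the summed intensity of the rest on DMSO arrays ran from 44610 to 45870 in SKMEL5, from 26920 to 28870 in WM2664 and from 1292 to 1909 in A375. In A375, TYR had a median at the floor of 32 over 6 arrays, as did MLANA and TYRP1, while MITF had a median of 416.5 and SOX10 of 725.5. Of 5 macrophage markers, listed because GPNMB is also known from macrophages, CD14, PTPRC and TYROBP lay at the floor on every array, CSF1R read up to 65.3 in WM2664 and from 36.05 to 62.65 in A375, and LYZ read from 54.67 to 92.36 in A375. Their sum ran from 160 to 193.3 in SKMEL5 and WM2664 and from 202.2 to 232.7 in A375, where 160 is the sum of 5 floors. Of 3 fibroblast markers, LUM and DCN had medians of 4166 and 383.7 in SKMEL5, LUM had one of 235 in A375, and PDGFRB had medians at the floor in all lines. Of 4 keratinocyte and epithelial markers, CDH1 had a median of 647.5 in SKMEL5 and KRT14 of 278.3 in A375, with KRT5 and EPCAM at the floor on every array. These marker sums also moved with A-485. The melanocytic sum at 6 h and 24 h was 35580 and 37450 with A-485 in SKMEL5, 17120 and 14100 in WM2664, and 455.9 and 612.7 in A375, below every DMSO array of the same line. The keratinocyte sum was 412.8 and 308.8 against 742 to 905.8 with DMSO in SKMEL5, 261.6 and 182.4 against 350.3 to 431.9 in A375, and at the sum of 4 floors, 128, on all arrays of WM2664. The fibroblast sum was 4189 and 3930 against 4531 to 5283 in SKMEL5, 210.5 and 166.8 against 309.1 to 370.8 in A375, and 96 and 115.8 against 105.1 to 237.6 in WM2664. The part of these shifts in the members' changes was not tested.

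Replicate DMSO arrays correlated between 0.986 and 0.992 on the log2 scale over all tested probe sets. On 3 DMSO arrays there was a trace of transcripts of another line: WM2664 at 6 h replicate 1 (1.99% of the level in SKMEL5), A375 at 6 h replicate 1 (0.88% of that in SKMEL5) and WM2664 at 24 h replicate 2 (0.55% of that in A375). Calls that changed without them are given at the genes concerned.

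Under DMSO, A375 held less of every one of the 10 genes than the mean of the other lines, and all 23 tested probe sets were called lower, with a median log2 difference of -2.36. The comparison called 78% of all 25105 tested probe sets, 37% of them lower, and the median over all of them was 0.04. By brightest probe set, the difference ran from -0.83 ± 0.05 for HPS1 to -4.01 ± 0.04 for GPNMB. Between SKMEL5 and WM2664, 20 of the 23 probe sets differed, 13 higher in SKMEL5 and 7 higher in WM2664, where 66.5% of all probe sets did, 33.6% and 32.9%. The largest gap was that of TSPAN10, 2.91 ± 0.14 higher in SKMEL5, and the order of these lines was turned for MYO5A, HPS1 and GPNMB, which were 0.98 ± 0.06, 0.83 ± 0.06 and 0.83 ± 0.04 lower in SKMEL5 by brightest probe set. Second probe sets of MYO5A (204527_at, 0.17 ± 0.05 higher in SKMEL5) and GPNMB (1554018_at, -0.07 ± 0.09) did not show that turn. MLPH and RAB38 did not pass the test between SKMEL5 and WM2664, with differences of -0.01 (95% interval -0.11 to 0.10) and 0.12 (-0.02 to 0.27), though RAB38 did with scaling to the same 75th percentile (0.25, adjusted p = 0.0169).

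**Figure D1:**
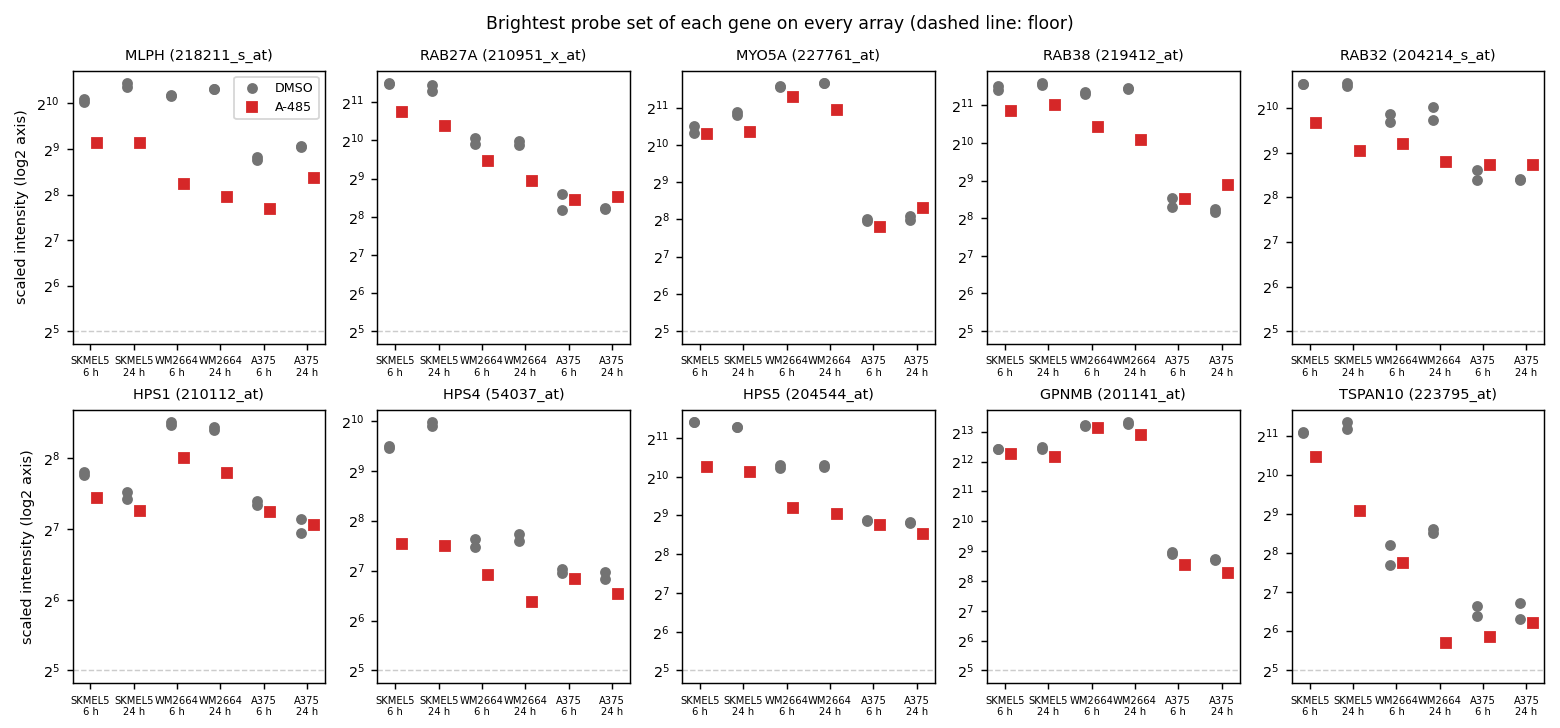
Scaled intensity (log2 axis) of the brightest probe set of each of the 10 genes, with grey circles for the 2 DMSO arrays and a red square for the A-485 array at each line and time, and a dashed line at the floor of 32. DMSO circles of A375 lie below those of SKMEL5 and WM2664 in every panel, and red squares lie below both circles for all 10 genes in WM2664 at 24 h, where 35.3% of all tested probe sets do so.

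After A-485 the genes were lower in SKMEL5 and WM2664, and more of them at 24 h than at 6 h. In SKMEL5, 13 of the 23 tested probe sets fell at 6 h and 18 at 24 h, and none rose. The same comparisons called 18.6% and 32.4% of all tested probe sets, 9.2% and 15% of them lower. In WM2664, 12 fell at 6 h and 20 at 24 h, and none rose, where 23% and 29.6% of all probe sets were called, 10.9% and 14% of them lower. The median log2 difference over the 23 probe sets was -0.62 and -0.97 in SKMEL5 and -0.51 and -0.99 in WM2664, and the median over all tested probe sets was 0.02 in each of these comparisons. At an unadjusted limma p under 0.05, 1 probe set was higher in SKMEL5 at 6 h and 0 in the other comparisons of these lines. By brightest probe set, 7 and 9 of the 10 genes fell in SKMEL5 at 6 h and 24 h, where 21.6% and 37.5% of all genes were called, and 6 and 10 in WM2664, where 26.7% and 34.3% were.

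A375 gave another picture. At 6 h, 4 of its 23 probe sets were called, all lower, where 9.22% of all probe sets were called and 5.95% were lower, and the members' median was -0.10 against 0.03 for all. At 24 h, 8 were called, 5 higher and 3 lower, where 13.3% of all probe sets were called, 6.25% higher and 7.09% lower, and the members' median was 0. In A375, 16 of the 23 probe sets at 6 h and 15 at 24 h had DMSO means of at least 64, and the rest had little room to fall. Among those with room, 4 fell at 6 h, and at 24 h 2 rose and 3 fell. All 10 brightest probe sets had room in A375, and 2 of them were called at 6 h and 4 at 24 h, where 11% and 15.6% of all genes were.

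Without scaling between arrays, 22 of the 23 passed the filter. The median of all probe sets itself then moved by 0.33 in SKMEL5 at 6 h. In WM2664 it moved by 0.46 at 6 h and by 0.27 at 24 h. Fewer member probe sets were called lower in these comparisons, 4, 2 and 8. Of all probe sets, 7.71%, 22.4% and 12.6% were called there, in either direction. Members were thus called less often than all probe sets in WM2664 at 6 h. In SKMEL5 at 24 h the median of all was 0, and 13 members were called, where 9.39% of all were. All 10 brightest probe sets still lay below the unscaled median of all probe sets in SKMEL5 and WM2664 at both times. In A375, 7 and 6 of 10 did. Calls of brightest probe sets that stood without scaling were those of HPS4 and HPS5 in SKMEL5 at 6 h, of MLPH, RAB27A, RAB32, HPS4, HPS5 and TSPAN10 there at 24 h, of MLPH in WM2664 at 6 h, of MLPH, RAB38, HPS4, HPS5 and TSPAN10 there at 24 h, and of MLPH in A375 at 6 h. Over all called probe sets, the share that was higher went without scaling from 50.5% to 77% in SKMEL5 at 6 h, from 53.6% to 28.2% at 24 h, from 52.5% to 88.4% and from 52.7% to 71.7% in WM2664, and from 35.5% to 11.8% and from 46.8% to 12.4% in A375. In the mean over the 3 lines, 19 member probe sets were called at 6 h and 20 at 24 h, all lower, where 35.8% and 44.7% of all were called and 16.2% and 20.4% were lower. The 6 h calls of 227761_at of MYO5A and 1552652_at of HPS4 in that mean were lost without the 3 DMSO arrays with another line's transcripts (adjusted p = 0.132 and 0.0628).

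**Figure D2:**
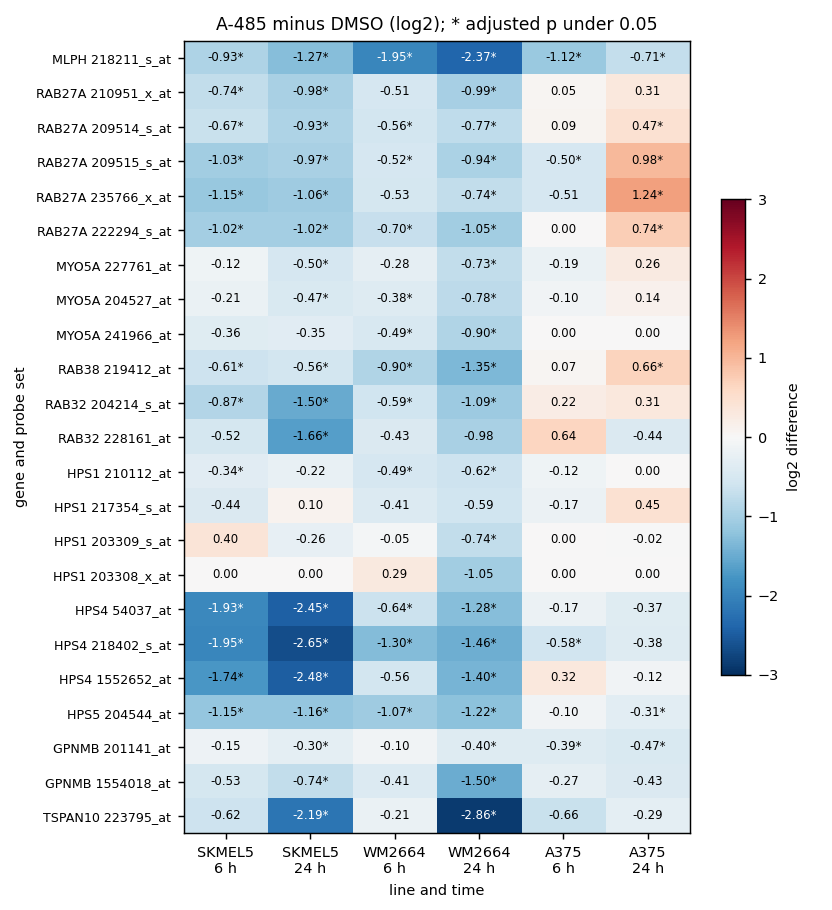
Log2 difference of A-485 from DMSO for the 23 tested probe sets (rows, gene and probe set) in each line and time (columns), blue for lower and red for higher, with an asterisk where the limma adjusted p was under 0.05. Columns of SKMEL5 and WM2664 are blue in nearly all rows, down to -2.86 for TSPAN10, and the red cells marked with an asterisk are RAB27A and RAB38 in A375 at 24 h. A value of 0.00 can stand for 2 groups at the floor, as for 241966_at of MYO5A in A375.

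In the tethering trio, MLPH fell in all 3 lines at both times, and no other gene of the 10 did. In SKMEL5 the MLPH probe set 218211_s_at read 1054 and 1103 with DMSO and 565 with A-485 at 6 h, and 1397 and 1315 against 560.3 at 24 h. In WM2664 it read 1146 and 1165 against 298 at 6 h, and 1282 and 1281 against 248 at 24 h. Every A-485 array of these lines lay below all of their DMSO arrays. A375 started lower, with 429.9 and 454 against 204 at 6 h and 532 and 537 against 327 at 24 h, again with no overlap. The fall was 1.91-fold at 6 h and 2.42-fold at 24 h in SKMEL5 (limma adjusted p = 0.000193 and 1.59e-05). A375 showed a fall of 2.17-fold and of 1.64-fold (adjusted p = 6.96e-05 and 0.000765). In WM2664 it was 3.87-fold and 5.17-fold (log2 -1.95 ± 0.08 and -2.37 ± 0.08, adjusted p = 3.51e-06 and 1.09e-06). With A-485 the WM2664 arrays thus read less MLPH than the DMSO arrays of A375. The response of SKMEL5 was smaller than that of WM2664 by 1.02 ± 0.11 at 6 h and 1.10 ± 0.11 at 24 h (adjusted p = 0.00236 and 0.000723). Without scaling both calls were lost (0.81 and 0.65, adjusted p = 0.825 and 0.496). That comparison was added after seeing the data, and in it 2 of the 10 genes were called at 6 h and 3 at 24 h, where 3.79% and 12.1% of all 11719 genes by brightest probe set were.

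RAB27A, the GTPase of the trio, is read by 5 probe sets that all fell in SKMEL5 at both times and in WM2664 at 24 h. The brightest, 210951_x_at, read 2907 and 2839 with DMSO and 1722 with A-485 in SKMEL5 at 6 h, and 2781 and 2493 against 1335 at 24 h. WM2664 arrays gave 953 and 1071 against 708, and 944 and 1010.0 against 492. The A-485 arrays of both lines lay below their DMSO arrays at each time. For SKMEL5 the difference was -0.74 ± 0.17 and -0.98 ± 0.17 (adjusted p = 0.0176 and 0.00296). For WM2664 it was -0.51 ± 0.17 and -0.99 ± 0.17 (adjusted p = 0.0595 and 0.00325), so the value in WM2664 at 6 h missed the threshold. It passed there without the 3 DMSO arrays that held another line's transcripts (-0.60, adjusted p = 0.0305), and the call in SKMEL5 at 6 h was lost without either DMSO array of that line and time (adjusted p = 0.0648 and 0.0546). The remaining probe sets differed by -0.67 to -1.15 in SKMEL5 at 6 h and by -0.52 to -0.70 in WM2664 at 6 h. Among these, 235766_x_at lost its 24 h call in WM2664 without DMSO replicate 2 there (-0.61, adjusted p = 0.0579), and 209515_s_at its 6 h call without DMSO replicate 2 of that time (-0.49, adjusted p = 0.0538). Both calls were also lost without the 3 DMSO arrays with another line's transcripts (adjusted p = 0.0719 and 0.0957).

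In A375 the RAB27A probe sets disagreed. The brightest read 387 and 287 with DMSO and 346 with A-485 at 6 h, and 298 and 297 against 369.6 at 24 h, a difference of 0.05 and of 0.31 (adjusted p = 0.962 and 0.281). Its A-485 array lay between the DMSO arrays at 6 h and above them at 24 h. The next, 209514_s_at, read 252 and 266 against 357 at 24 h, 1.38-fold higher (adjusted p = 0.0338), a call lost without either of these DMSO arrays (adjusted p = 0.111 and 0.0705), without either 6 h DMSO array of SKMEL5 (0.0551) and without the 3 arrays with another line's transcripts (0.0657). For 209515_s_at the values were 76.5 and 76.7 against 54.1 at 6 h, and 41.8 and 49.9 against 90.1 at 24 h. That probe set fell by 0.50 at 6 h (adjusted p = 0.0297), a call lost without either DMSO array (0.0925 and 0.0950) or without those 3 arrays (0.189), and rose by 0.98 ± 0.11 at 24 h (adjusted p = 0.000935). In 235766_x_at and 222294_s_at both DMSO arrays were at the floor of 32 at 24 h and the A-485 array read 75.5 and 53.5, at least 2.36-fold and at least 1.67-fold higher (adjusted p = 0.00255 and 0.000889). All RAB27A probe sets but the brightest were thus called higher in A375 at 24 h. The ending _x_at marks probe sets whose probes can also match other transcripts.

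**Figure D3:**
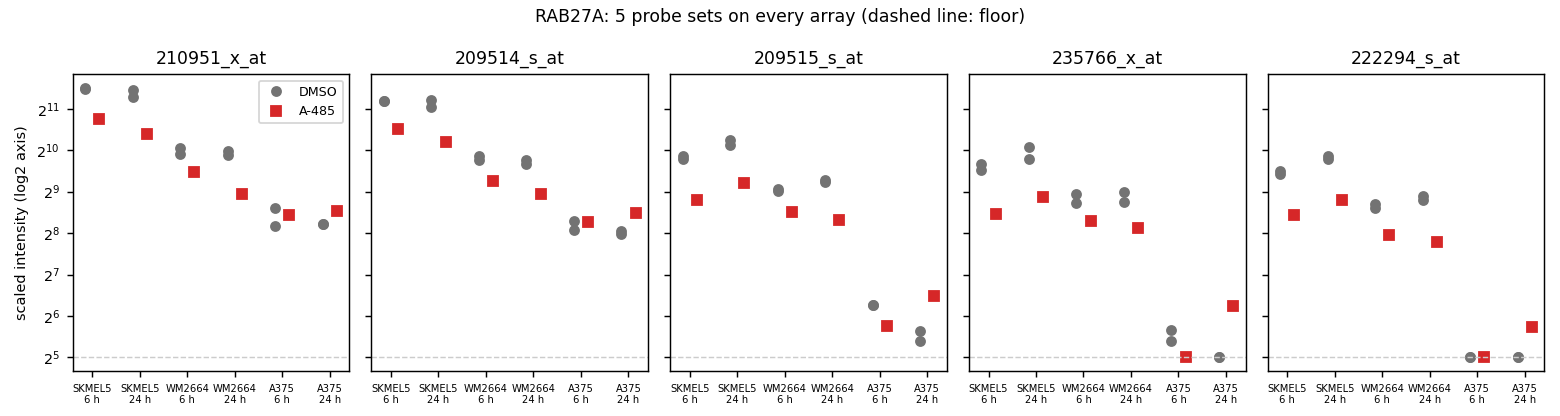
Scaled intensity (log2 axis) of the 5 RAB27A probe sets on all 18 arrays, with grey circles for DMSO, red squares for A-485 and a dashed line at the floor of 32. In SKMEL5 and WM2664 the red squares lie below the circles in every panel, and in A375 at 24 h they lie above the circles, which sit at the floor in 235766_x_at and 222294_s_at.

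MYO5A, the motor, fell in SKMEL5 and WM2664 at 24 h. Its brightest probe set 227761_at read 1280.0 and 1459 with DMSO and 1257 with A-485 in SKMEL5 at 6 h, and 1769 and 1890.0 against 1294 at 24 h. The values in WM2664 were 3024 and 3045 against 2498, and 3229 and 3221 against 1945. The A-485 arrays were the lowest of each set of 3. The fall at 24 h was 0.50 ± 0.10 in SKMEL5 (adjusted p = 0.00705) and 0.73 ± 0.10 in WM2664 (0.00126), and the differences at 6 h were -0.12 and -0.28 (adjusted p = 0.493 and 0.0856). A second probe set, 204527_at, also fell at 24 h in both lines (-0.47 and -0.78), and in WM2664 at 6 h it read 1428 and 1390.0 against 1080.0 and fell by 0.38 ± 0.08 (adjusted p = 0.0127). A dimmer one, 241966_at, fell in WM2664 by 0.49 and 0.90, at 6 h not without DMSO replicate 2 (adjusted p = 0.0818), and missed the threshold in SKMEL5 (-0.36 and -0.35). In A375, 227761_at read 256 and 250.3 against 222 at 6 h and 251 and 274 against 314 at 24 h, and neither difference passed (-0.19 and 0.26, adjusted p = 0.329 and 0.140).

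RAB38 and RAB32 are paired GTPases that carry tyrosinase and TYRP1 toward melanosomes. RAB38, read by 219412_at, gave 2729 and 2895 with DMSO and 1841 with A-485 in SKMEL5 at 6 h, and 3080.0 and 2944 against 2040.0 at 24 h. In WM2664 it gave 2525 and 2610.0 against 1380.0, and 2748 and 2813 against 1087. With A-485 the WM2664 arrays were the lower, and under DMSO the lines differed by less, 0.12, or by 0.25 with scaling to the same 75th percentile, where the difference passed (adjusted p = 0.0169). RAB38 fell 1.53-fold and 1.48-fold in SKMEL5 (adjusted p = 0.00699 and 0.00561) and 1.86-fold and 2.56-fold in WM2664 (adjusted p = 0.000827 and 7.49e-05). At 24 h the responses of SKMEL5 and WM2664 differed by 0.79 ± 0.15 (adjusted p = 0.0151), and at 6 h by 0.28 (95% interval -0.07 to 0.64), which did not pass. The difference at 24 h missed the threshold with scaling to the same 75th percentile (0.69, adjusted p = 0.0516) and without scaling (0.36, adjusted p = 0.716).

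In A375, RAB38 read 374 and 317 with DMSO and 362 with A-485 at 6 h, and 288 and 305 against 469.6 at 24 h. The A-485 array lay between the DMSO arrays at 6 h and above all 4 DMSO arrays of the line at 24 h. The rise at 24 h was 1.58-fold (0.66 ± 0.11, adjusted p = 0.00563), and at 6 h the difference was 0.07 (adjusted p = 0.828). RAB38 was the only gene of the 10 whose brightest probe set was called higher in any line and time. The call stood without any single DMSO array and was lost without scaling, where the value was 0.67 (adjusted p = 0.298).

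RAB32 (204214_s_at) read 1484 and 1487 with DMSO and 811 with A-485 in SKMEL5 at 6 h, and 1514 and 1454 against 524 at 24 h. WM2664 gave 829 and 934 against 583, and 1036 and 858 against 443. A375 gave 389.9 and 337 against 423, and 342 and 338 against 421. RAB32 fell without overlap in SKMEL5 and WM2664, while its A-485 arrays in A375 lay above both DMSO arrays of the same time. The fall was 1.83-fold and 2.83-fold in SKMEL5 (adjusted p = 0.00380 and 0.000125) and 1.51-fold and 2.13-fold in WM2664 (limma adjusted p = 0.0162 and 0.000749). The call in WM2664 at 6 h was lost without DMSO replicate 2 (-0.51, adjusted p = 0.0695). In A375 the differences of 0.22 and 0.31 did not pass (adjusted p = 0.410 and 0.191). A dim second probe set, 228161_at, ranged from the floor to 160.0 over all arrays. Among responses in single lines it was called in SKMEL5 at 24 h alone, at -1.66. That call was lost without DMSO replicate 2 there (-1.59). In the mean over lines it was also called at 24 h (-1.03).

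HPS1 and HPS4 form BLOC-3, the exchange factor that loads RAB32 and RAB38 with GTP. HPS4 fell more than any other gene of the 10 in SKMEL5, by brightest probe set. There 54037_at read 718 and 697 with DMSO and 185 with A-485 at 6 h, and 958 and 1002 against 179 at 24 h. The WM2664 values were 177 and 198 against 120.1, and 212 and 192 against 82.8. The A-485 level of SKMEL5 reached the DMSO range of WM2664, 176.6 to 211.7 over 4 arrays. The fall was 3.82-fold and 5.46-fold in SKMEL5 (-1.93 ± 0.11 and -2.45 ± 0.11, adjusted p = 2.68e-05 and 2.50e-06) and 1.55-fold and 2.43-fold in WM2664 (adjusted p = 0.00417 and 9.62e-05). The responses of these lines differed by -1.30 ± 0.15 at 6 h and -1.17 ± 0.15 at 24 h (adjusted p = 0.00338 and 0.00239). Without scaling the 6 h call was lost (-1.43, adjusted p = 0.136).

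The other HPS4 probe sets moved the same way in SKMEL5. The probe set 218402_s_at read 690.2 and 751 with DMSO and 187 with A-485 at 6 h, and 1229 and 1135 against 188 at 24 h, and 1552652_at read 359.5 and 389 against 112, and 577 and 715 against 115. Their differences were -1.95 and -2.65, and -1.74 and -2.48. In WM2664, 218402_s_at fell by 1.30 at 6 h, against 0.64 for 54037_at, and 1552652_at differed by -0.56 there without passing. The difference between the responses of SKMEL5 and WM2664 depended on the probe set: 218402_s_at passed at 24 h (-1.19, adjusted p = 0.00638, but 0.0628 without the 3 arrays with another line's transcripts and 0.0560 without scaling) and not at 6 h (-0.65, adjusted p = 0.135), and 1552652_at passed at neither time (-1.18 and -1.09, adjusted p = 0.0870 and 0.0583). In A375, 54037_at read 125 and 131 against 113 at 6 h and 114 and 126 against 92.6 at 24 h, with differences of -0.17 and -0.37 (adjusted p = 0.435 and 0.0628). HPS4 was called in A375 by 218402_s_at at 6 h alone (97.7 and 92.4 against 63.4, -0.58, adjusted p = 0.0317), a call lost without either DMSO array (adjusted p = 0.114 and 0.0779) or without the 3 arrays with another line's transcripts (0.167).

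HPS1, the partner of HPS4, fell in WM2664 at both times. Its brightest probe set 210112_at read 217 and 225 with DMSO and 174 with A-485 in SKMEL5 at 6 h, and 184 and 172 against 153 at 24 h. In WM2664 the values were 357 and 365 against 256, and 338 and 347 against 222. HPS1 fell 1.41-fold and 1.54-fold in WM2664 (adjusted p = 0.00922 and 0.00252) and 1.27-fold in SKMEL5 at 6 h (adjusted p = 0.0466), while in SKMEL5 at 24 h the difference of -0.22 did not pass (adjusted p = 0.134). The call in SKMEL5 was lost when any of 8 single DMSO arrays was left out, with adjusted p up to 0.139. Without the 3 arrays with another line's transcripts, both 6 h calls were lost (adjusted p = 0.124 in SKMEL5 and 0.0704 in WM2664). In A375 it read 169 and 162 against 152, and 124 and 142 against 133, and neither difference passed (-0.12 and 0.00). The remaining HPS1 probe sets tested stayed between the floor and 265.6 on all arrays. Their responses to A-485 in single lines gave 1 call, 203309_s_at in WM2664 at 24 h (-0.74). That call was lost with a floor of 16 (-0.744) and without scaling (-0.495). In the mean over lines, 203309_s_at was also called at 24 h (-0.34) and between times (-0.45), calls lost under the same settings. In SKMEL5 the differences of the 3 HPS4 probe sets ran from -1.74 to -2.65 and those of the tested HPS1 probe sets from -0.44 to 0.40. The difference between these genes was not tested.

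HPS5 is a subunit of BLOC-2, which directs cargo from endosomes to melanosomes. The start of HPS5 is shown because, among the 8 genes found in the RefSeq promoter table, its window alone holds TCACGTG, an E-box with the T in front that MITF is known to bind. MITF is the transcription factor that controls pigment genes. The windows of TSPAN10 and GPNMB are shown because they hold TCATGTG, the M-box form. Capitals mark the matches, read on either strand, and each sequence runs 5′ to 3′ on the gene's strand from 250 to 51 bases before the start that RefSeq gives on GRCh38.p14.
HPS5, chr11:18322191-18322390, minus strand: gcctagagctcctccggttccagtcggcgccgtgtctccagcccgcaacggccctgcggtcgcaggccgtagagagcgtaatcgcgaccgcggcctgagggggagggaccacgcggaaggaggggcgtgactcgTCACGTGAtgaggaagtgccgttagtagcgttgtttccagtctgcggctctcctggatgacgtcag
TSPAN10, chr17:81642055-81642254, plus strand: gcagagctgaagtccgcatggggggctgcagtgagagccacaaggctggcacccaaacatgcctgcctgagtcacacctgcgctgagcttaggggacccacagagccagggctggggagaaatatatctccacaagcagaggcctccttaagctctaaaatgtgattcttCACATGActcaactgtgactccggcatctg
GPNMB, chr7:23246525-23246724, plus strand: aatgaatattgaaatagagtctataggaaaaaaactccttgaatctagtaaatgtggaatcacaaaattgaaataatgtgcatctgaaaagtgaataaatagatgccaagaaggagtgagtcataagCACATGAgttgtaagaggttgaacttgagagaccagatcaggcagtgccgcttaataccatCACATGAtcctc
The match of HPS5 holds TCACGTG on both strands, overlapping, and GPNMB has 2 matches, 123 and 62 bases before its start. Of 35116 windows in the table, each from 250 bases before to 50 after a start, 3.71% held TCACGTG and 2.92% held TCATGTG. The 8 genes found have 16 windows in it, of which 1 held the first and 2 the second. A match is a description of these letters and no sign of binding. RAB38 and HPS1 were not among the genes found.

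HPS5 (204544_at) fell by nearly the same amount in SKMEL5 and WM2664 at both times. It read 2710.0 and 2709 with DMSO and 1217 with A-485 in SKMEL5 at 6 h, and 2497 and 2497 against 1119 at 24 h. In WM2664 it read 1260.0 and 1198 against 585, and 1211 and 1256 against 529. The A-485 arrays of SKMEL5 thus came down to the DMSO level of WM2664, and those of WM2664 neared the DMSO level of A375, 448.3 to 470.4. The fall was 2.23-fold at both times in SKMEL5 (adjusted p = 4.39e-05 and 1.81e-05) and 2.10-fold and 2.33-fold in WM2664 (adjusted p = 4.70e-05 and 1.79e-05). The responses of the lines differed by -0.08 at 6 h (95% interval -0.32 to 0.16) and 0.06 at 24 h (-0.18 to 0.30). In A375, HPS5 read 461 and 470.4 against 433 at 6 h, a difference of -0.10 (adjusted p = 0.499), and 459.7 and 448 against 366 at 24 h, where it fell by 0.31 ± 0.07 (adjusted p = 0.0282). That call in A375 was lost without either 24 h DMSO array (adjusted p = 0.0851 and 0.0591). The BLOC-2 partners of HPS5, HPS3 and HPS6, did not pass the test in any line or time, with differences from -0.21 to 0.19 for HPS3 and from -0.15 to 0.40 for HPS6 (lowest adjusted p = 0.145).

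GPNMB, a membrane glycoprotein of melanosomes related to PMEL, fell in all 3 lines at 24 h. Its brightest probe set 201141_at read 5458 and 5431 with DMSO and 4909 with A-485 in SKMEL5 at 6 h, and 5431 and 5702 against 4533 at 24 h. In WM2664 it read 9608 and 9309 against 8842, and 9922 and 10200.0 against 7639. In A375 it read 506 and 479 against 374.8, and 424 and 421 against 306. All 6 A-485 arrays lay below both DMSO arrays of their line and time. GPNMB fell at 24 h by 0.30 ± 0.08 in SKMEL5 (adjusted p = 0.0199), by 0.40 ± 0.08 in WM2664 (0.00609) and by 0.47 ± 0.08 in A375 (0.00571). At 6 h it fell in A375 alone, by 0.39 ± 0.08 (adjusted p = 0.0161), against -0.15 and -0.10 in SKMEL5 and WM2664, and the difference of A375 from those lines at 6 h did not pass the test (-0.27, adjusted p = 0.137). The 6 h call in A375 was lost without DMSO replicate 1 there (adjusted p = 0.0669), one of the arrays with another line's transcripts, and without all 3 of these (0.0871), and the call in SKMEL5 at 24 h without DMSO replicate 2 (0.0586).

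The second GPNMB probe set, 1554018_at, read larger differences. In SKMEL5 it read 2966 and 2982 against 1776 at 24 h, and in WM2664 2954 and 3312 against 1109. It fell by 0.74 ± 0.16 and 1.5 ± 0.16 (adjusted p = 0.00900 and 0.000337), against 0.30 and 0.40 for 201141_at, so the size of the GPNMB response depends on the probe set. At 6 h its differences were -0.53 in SKMEL5 (adjusted p = 0.0546) and -0.41 in WM2664 (0.106). In A375 they were -0.27 and -0.43 (adjusted p = 0.405 and 0.121).

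TSPAN10, a tetraspanin of pigment cells from the group that partners the protease ADAM10, was called lower at 24 h in SKMEL5 and WM2664. Its probe set 223795_at read 2170.0 and 2160.0 with DMSO and 1406 with A-485 in SKMEL5 at 6 h, and 2311 and 2588 against 536 at 24 h. In WM2664 it read 206 and 298 against 214 at 6 h, inside the DMSO values, and 392 and 364 against 52 at 24 h. The last value lay below every DMSO array of A375, 78.9 to 106. At 24 h TSPAN10 fell 4.56-fold in SKMEL5 and 7.26-fold in WM2664 (-2.19 ± 0.24 and -2.86 ± 0.24, adjusted p = 0.000311 and 8.86e-05). At 6 h the differences were -0.62 and -0.21 (adjusted p = 0.111 and 0.610). Between 6 h and 24 h the response moved by -1.57 ± 0.33 in SKMEL5 (adjusted p = 0.0246) and by -2.65 ± 0.33 in WM2664 (0.00416), comparisons added after seeing the data, which called 10.9% and 8.77% of all genes by brightest probe set. The SKMEL5 value lost its call without any of 3 single DMSO arrays (adjusted p = 0.0611 to 0.0627), and both lost it without the 3 arrays with another line's transcripts (-1.57 and -2.44, adjusted p = 0.0646 and 0.0534). In A375 it read 83.9 and 99.7 against 57.9 at 6 h and 106 and 78.9 against 74.5 at 24 h, and neither difference passed (-0.66 and -0.29).

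Of the 10 genes by brightest probe set, TSPAN10 and HPS4 passed the test of time in WM2664 (HPS4 -0.65 ± 0.15, adjusted p = 0.0442), TSPAN10 alone in SKMEL5, and 0 in A375, where 2.07% of all genes did and 3 members had an unadjusted limma p under 0.05. The HPS4 call was lost without any of 10 single DMSO arrays (adjusted p up to 0.0912) and without the 3 arrays with another line's transcripts (0.114), where RAB32 passed in SKMEL5 instead (-0.63, adjusted p = 0.0374). For MLPH the change of response from 6 h to 24 h was -0.34 and -0.42 in SKMEL5 and WM2664 and 0.41 in A375, without passing (adjusted p = 0.107, 0.0661 and 0.150). The HPS4 call was lost without scaling too (-0.86, adjusted p = 0.444). Among the dimmer probe sets, RAB27A 209515_s_at moved from 6 h to 24 h by 1.48 ± 0.16 in A375 (adjusted p = 0.00473). It lost that call without the 3 arrays with another line's transcripts (0.120) and without scaling (0.216). The probe sets 235766_x_at and 222294_s_at also passed there, with sides at the floor, and lost their calls without the 3 arrays (0.115 and 0.124) and without scaling (0.0565 and 0.953). In the mean over the 3 lines, 7 of 23 probe sets differed between the times, 2 higher and 5 lower. Of all probe sets, 14.9% did, 7.09% higher and 7.8% lower. The 2 higher were 209515_s_at and 235766_x_at of RAB27A. Both lost their calls without the 3 arrays with another line's transcripts (0.389 and 0.585). So did 1552652_at of HPS4, which was lower (-0.707), while 204214_s_at of RAB32 gained a call (-0.398).

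Whether A375 responded as the other lines did was tested as the response of A375 minus the mean response of SKMEL5 and WM2664. At 6 h, 8 of the 23 probe sets were called, all higher in A375, where 8.42% of all probe sets were called and 4.44% were higher. At 24 h, 18 were called, all higher in A375, where 19.1% of all were called and 10.4% were higher. The members' median was 0.33 at 6 h and 1.11 at 24 h, against -0.01 for all probe sets at both times. By brightest probe set, 4 genes were called at 6 h, where 9.47% of all genes were: HPS4 (1.11 ± 0.13), HPS5 (1.01 ± 0.09), RAB32 (0.96 ± 0.17) and RAB38 (0.82 ± 0.13). At 24 h all but GPNMB were called, where 22.3% of all genes were, from 0.43 ± 0.12 for HPS1 to 2.23 ± 0.29 for TSPAN10, with RAB38 at 1.62 ± 0.13, RAB32 at 1.60 ± 0.17, HPS4 at 1.5 ± 0.13 and RAB27A at 1.30 ± 0.20. MLPH fell in A375 too, but by 1.11 ± 0.10 less than in the other lines at 24 h, and at 6 h its difference of 0.33 missed the threshold (adjusted p = 0.0841). GPNMB differed by -0.12 at 24 h (95% interval -0.34 to 0.10). Its second probe set, 1554018_at, was called higher in A375 at 24 h (0.685 ± 0.196). That call was lost without scaling (0.606), with no filter and with a floor of 16 (0.685 in each). It was also lost without either 24 h DMSO array of A375 (0.641 and 0.729) and without any single DMSO array of SKMEL5 or WM2664 (0.644 to 0.726). The HPS1 call at 24 h was lost without any of 10 single arrays (adjusted p up to 0.0981) and without the 3 arrays with another line's transcripts (0.130). Without those 3 arrays RAB27A passed at 6 h too (0.94, adjusted p = 0.0373, against 0.68 and 0.0876 with them), while 3 other probe sets lost their 6 h calls, 209514_s_at of RAB27A (0.83, adjusted p = 0.0608) and 218402_s_at and 1552652_at of HPS4 (1.13 and 1.49, adjusted p = 0.0620 and 0.141). Unscaled, 0 of the member probe sets were called by limma at 6 h, with 3 at an unadjusted p under 0.05. At 24 h, 9 were called. Of all probe sets, 2.04% and 4.78% were called unscaled at 6 h and 24 h. The members' median lay 0.34 and 1.19 above that of all probe sets.

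**Figure D4:**
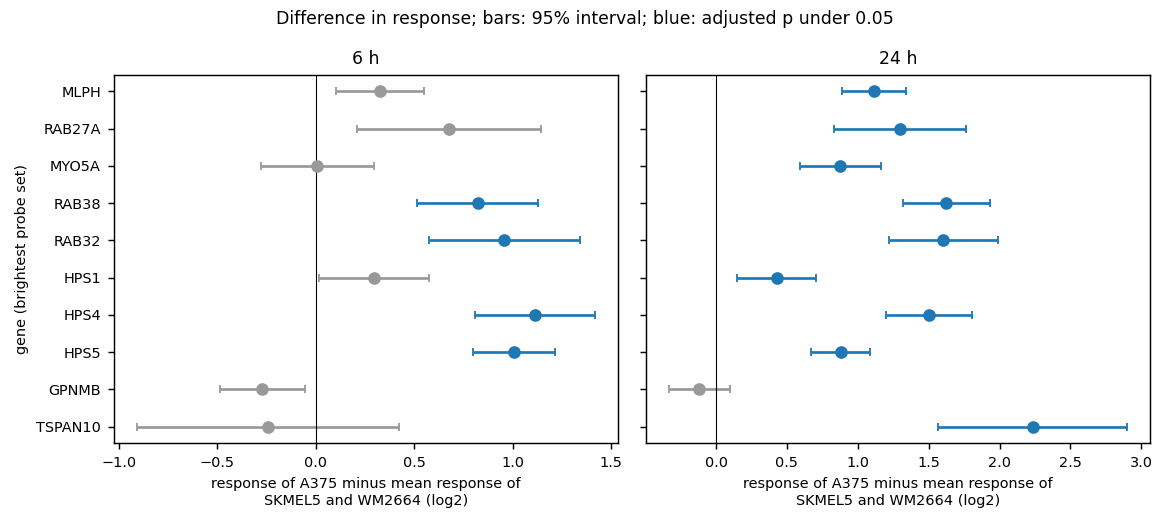
Response of A375 minus the mean response of SKMEL5 and WM2664 (log2) for the brightest probe set of each gene at 6 h (left) and 24 h (right), with 95% intervals not adjusted for the number of genes and blue points where the limma adjusted p was under 0.05. At 24 h every point but that of GPNMB lies right of 0 and is blue, up to 2.23 for TSPAN10.

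MITF, read by 226066_at, fell in every line and time. The difference was -1.34 and -0.50 in SKMEL5, -2.62 and -1.51 in WM2664, and -1.13 and -1.49 in A375 at 6 h and 24 h, each ± 0.10 (adjusted p from 2.61e-06 to 0.00546). MITF was thus less reduced at 24 h than at 6 h in SKMEL5 and WM2664 (0.84 ± 0.14 and 1.11 ± 0.14, adjusted p = 0.00759 and 0.00372), while TSPAN10 went the other way. In A375 at 24 h, MITF fell and RAB38 rose. Under DMSO, MITF was 0.41 ± 0.06 higher in SKMEL5 than in WM2664, and its response in SKMEL5 was smaller than in WM2664 by 1.28 ± 0.14 at 6 h and 1.01 ± 0.14 at 24 h. The part of MITF in the members' changes was not tested.

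The wider pathway was covered by a list of 70 other genes of melanosome biogenesis and transport: 68 had a probe set, and 62 passed the filter by brightest probe set. Their changes went both ways. In SKMEL5, 5 rose and 8 fell at 6 h, and 13 rose and 6 fell at 24 h, where 21.6% and 37.5% of all genes were called. In WM2664, 8 rose and 9 fell, and 12 rose and 8 fell, where 26.7% and 34.3% were. In A375, 3 rose and 7 fell, and 5 rose and 5 fell, where 11% and 15.6% were. The 62 were called at 21.0%, 30.6%, 27.4%, 32.3%, 16.1% and 16.1% in that order. The median difference over the 62 lay between 0.01 and 0.11 in all 6 comparisons, near that over all genes (0.02 to 0.04).

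Some of these genes moved with the members. MREG (melanoregulin), a regulator of melanosome transport, fell in SKMEL5 by 0.93 and 1.05 and in WM2664 by 1.18 and 1.84. AP3M2, a subunit of the AP-3 sorting adaptor, fell in WM2664 by 1.81 and 1.83 and in SKMEL5 by 0.50 and 1.27, while AP3M1, its paralog, rose at 24 h by 0.49 in SKMEL5 and 0.28 in WM2664. TSPAN14, a tetraspanin of the list, fell in every line and time. At 6 h it fell by 2.04 in WM2664, by 1.51 in SKMEL5 and by 1.05 in A375. TSPAN33, another tetraspanin of the list, rose in SKMEL5 at 24 h by 0.582, in WM2664 by 0.765 and 0.624, and in A375 at 6 h by 0.749. STX3, a SNARE, fell in WM2664 by 0.62 and 1.40 and in SKMEL5 by 0.53 and 0.88. Other SNAREs rose: STX12 in every line and time (0.524 to 0.671), and VAMP7 and SNAP23 at 24 h in all 3 lines (0.279 to 0.505). VAMP7 also rose at 6 h in SKMEL5 and WM2664 (0.336 and 0.338). LYST, the Chediak-Higashi gene, fell in WM2664 by 1.51 and 1.13 and in A375 by 0.86 at 6 h and by at least 1.44 at 24 h, where A-485 was at the floor. Of the genes listed beside RAB27A, SYTL2 fell in A375 by 0.93 and 1.96 and at 6 h in SKMEL5 and WM2664 by 0.76 and 1.11. RAB3GAP1, of the same list, rose in SKMEL5 by 0.61 and 0.81 and in WM2664 by 0.49 and 0.71. SYTL5 fell in WM2664 at 6 h by 1.09 and in A375 at 24 h by 2.73, to a level at or just above the floor. RAB27B fell in A375 at 6 h by 0.46, and MADD rose in SKMEL5 at 24 h by 0.83. The relatives of MYO5A moved apart: MYO5C rose in WM2664 by 0.80 and 1.83 (± 0.15, adjusted p = 0.00626 and 8.07e-05) and, from near the floor, in A375 at 24 h by 0.64. MYO5B fell in A375 by 0.88 and 1.79 and rose from near the floor in SKMEL5 at 24 h by 0.98. Of the 7 BLOC-1 genes tested, BLOC1S1 fell in SKMEL5 at 6 h (-0.41), and the other calls were rises. SNAPIN rose in SKMEL5 at both times (0.32 and 0.33) and in WM2664 at 24 h (0.38), BLOC1S2 in SKMEL5 at 6 h (0.28) and in WM2664 at both times (0.57 and 0.27), BLOC1S4 at 24 h in SKMEL5 and WM2664 (0.63 and 0.69), and BLOC1S6 in A375 at 24 h (0.49).

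For each member the 3 genes most like it over the 18 arrays were named by Pearson's r of log2 values among 11719 genes, a measure that reflects mostly the gap between lines and is given as a description. They were KDR, MYC and KIAA1549L for MLPH (0.967 to 0.936), and TBC1D7, CAPN3 and TTYH2 for RAB27A (0.993 to 0.988). For RAB38 they were SIRPA, ZNF704 and MREG (0.993 to 0.991), for RAB32 TRIM63, PARL and USP48 (0.977 to 0.975), and for MYO5A MGP, KAT2B and DIP2C (0.996 to 0.992). HPS1 was most like TMX4, KITLG and DMRT2 (0.977 to 0.969), HPS4 like HAS2, SEMA6A and SOX8 (0.971 to 0.968), and HPS5 like LHFPL3-AS1, PIP4K2A and HORMAD1 (0.990 to 0.985). GPNMB was most like FGF13, S100B and PLS3 (0.996 to 0.994), and TSPAN10 like CAPN3, TPBGL and CLCN7 (0.979 to 0.977). CAPN3 stood on the lists of both RAB27A and TSPAN10, and no member was on the list of another.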

How the data were processed

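RNA of 3 melanoma cell lines was read on 18 Affymetrix HG-U133 Plus 2.0 arrays. Per the labels' protocols, RNA was taken up in Qiazol, purified with RNeasy and turned into biotinylated cRNA with a 3' IVT kit. The authors deposited 1 linear intensity per probe set and array. Their software and scaling were not given in the sources used here. On each array 19.3% to 22.9% of deposited intensities were below 0, the median lay between 19.5 and 29.0, and the number of arrays limits the precision.

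Intensities were quantile normalized on the linear scale, raised to a floor of 32 and taken to log2. Probe sets with a mean log2 of at least 5.3 over all arrays were tested (25105 of 54613). A model of 12 group means was fitted with limma 3.58.1 in R 4.3.3, with 6 residual and 2.11 prior degrees of freedom, and p-values were Benjamini-Hochberg adjusted over all tested probe sets within each comparison. There were 13 planned comparisons and 5 added after seeing the data. Symbols came from the platform annotation, updated by Entrez identifier, and 41091 probe sets had 1 symbol, 1801 several and 11721 none. A gene's brightest probe set stands for it. The scripts were tested on simulated data.

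Values were printed array by array for the brightest probe set of each gene. Other member probe sets were given array by array only in part, and otherwise by differences, ranges or counts. Genes of the wider pathway were named among the 4 largest called per line and time, leaving out those with a group mean at or just above the floor. HPS3, HPS6, AP3M1, TSPAN33, STX12, VAMP7, SNAP23, SYTL5, RAB27B, MADD and the BLOC-1 genes were named after their values were seen. MITF stands beside the members, and the 3 genes most like each member were taken by Pearson's r. Promoter windows are RefSeq's. The members and lists were chosen with earlier results of these data known. Alternatives were no filter, a floor of 16, no scaling, scaling to the 75th percentile, an intensity trend, the replicate number as a block, an additive fit, and leaving out each array or the 3 DMSO arrays with another line's transcripts.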

Additional observations from a re-analysis of the deposited data

Results flagged for a closer look

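Each result here was singled out because responses to A-485 differed between lines or times by a limma test of the difference itself, at an adjusted p under 0.05 and by the brightest probe set of the gene. No group held 4 arrays, so single arrays were not tested as outliers.

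At 6 h the response of A375 exceeded the mean response of SKMEL5 and WM2664 by 0.82 for RAB38, 0.96 for RAB32, 1.11 for HPS4 and 1.01 for HPS5. At 24 h the excess was 1.11 for MLPH, 1.30 for RAB27A, 1.62 for RAB38, 1.60 for RAB32, 0.88 for MYO5A, 0.43 for HPS1, 1.5 for HPS4, 0.88 for HPS5 and 2.23 for TSPAN10. For RAB38 the difference at 24 h joins a rise in A375 to a fall in the other lines, and for the others a called fall in at least 1 of the other lines to a smaller or uncalled change in A375. Without scaling, all of these 6 h calls were lost, with values of 0.587 for RAB38, 0.643 for RAB32, 0.737 for HPS4 and 0.704 for HPS5. The 24 h calls lost without scaling included those of MLPH (0.91), RAB27A (1.186), HPS1 (0.237) and HPS5 (0.748).

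The response at 24 h minus 6 h was -1.57 for TSPAN10 in SKMEL5, and -2.65 for TSPAN10 and -0.65 for HPS4 in WM2664. The response of SKMEL5 minus that of WM2664 at 6 h was 1.02 for MLPH and -1.30 for HPS4. At 24 h it was 1.10 for MLPH, 0.79 for RAB38 and -1.17 for HPS4. MLPH fell more in WM2664 and HPS4 more in SKMEL5. Without scaling the MLPH values were 0.81 and 0.65 (limma adjusted p = 0.825 and 0.496), those of RAB38 at 24 h and HPS4 at 6 h were 0.36 and -1.43 (0.716 and 0.136), and none of these passed. The cause of these differences was not tested.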

How the results depend on the processing

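Counts are of the 23 member probe sets called, beside those of the report, with 22 tested without scaling. Shares of all probe sets called are given for the run without scaling only. In that run 4 were called in SKMEL5 at 6 h (7.71% of all) and 2 and 8 in WM2664 (22.4% and 12.6%). A375 had 1 and 1 (2.7% and 3.94%). The mean over lines at 6 h and 24 h had 6 and 10, against 19 and 20, where 36.6% and 22.3% of all were called. A375 against the other lines had 0 at 6 h (2.04%), with 3 at an unadjusted limma p under 0.05, and 9 at 24 h (4.78%). The mean response between times had 1 (3.07%). In the mean over lines, the additive fit gave 9 and 8. For A375 at 6 h the count was 2 with no filter and with a floor of 16, and 1 with the replicate block or without the 3 DMSO arrays with another line's transcripts. Between times it was 3 with a floor of 16 and 1 with the replicate block. The cause of these moves was not tested. Same-numbered DMSO arrays of different lines deviated from their group means with correlations of -0.03 to 0.04. Whether an A-485 array is paired with the DMSO array of its number cannot be seen, because a lone array has no deviation from its group mean. The block moved no other count of calls by over 1.5 times.

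Leaving out 1 array gave 11 to 14 calls in SKMEL5 at 6 h and 16 to 19 at 24 h, 9 to 14 and 20 in WM2664, 1 to 4 and 6 to 9 in A375, 12 to 19 and 10 to 21 in the mean over lines, and 2 to 15 between times. It gave 7 to 9 and 15 to 18 for A375 against the other lines, and 22 to 23 and 20 for the DMSO levels of A375 and of SKMEL5 against WM2664. Of called values, those of MYO5A turned without scaling in the mean over lines at 6 h (0.026 in 227761_at, 0.036 in 204527_at, 0.001 in 241966_at). Called values also turned in WM2664 at 6 h for MYO5A (0.072 in 204527_at, 0.015 in 241966_at) and HPS1 (0.029). Uncalled values of brightest probe sets turned too. At 6 h they were those of MYO5A (0.162 and 0.04) and GPNMB (0.063 and 0.098) in SKMEL5 and WM2664, and TSPAN10 in WM2664 (0.308). HPS1 turned in A375 at 24 h (-0.031). Leaving out an A-485 array leaves a mean of the remaining lines. The mean at 24 h then ran from -0.957 to 0.019 for RAB27A 209515_s_at (0.004 without WM2664, 0.019 without SKMEL5) and from -0.958 to 0.052 for RAB38 (highest without WM2664). Between times it ran from -0.489 to 0.342 for MLPH (highest without WM2664 at 24 h), from -0.273 to 0.703 and from -0.168 to 0.98 for RAB27A 209515_s_at and 235766_x_at and from -0.479 to 0.531 for RAB38 (lowest without A375 at 24 h), and from -0.963 to 0.089 for HPS4 (highest without SKMEL5 at 24 h). Probe sets near the floor limit what can be seen in A375.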
